A study of Mus musculus with 7 samples.

Results

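The 10 genes described here encode the superoxide dismutases (Sod1, Sod2, Sod3), the main enzymes that remove peroxides (Cat, Gpx1, Gpx4) and the enzymes that make or regenerate glutathione (Gclc, Gclm, Gss, Gsr). They were chosen by name, and every probe set of the array that the platform annotation matches to one of them alone was taken. This gave 24 probe sets of 45037 tested, and 10 genes of the 18193 that have a probe set of their own. Levels were measured with Affymetrix Mouse Genome 430 2.0 arrays in erythroblasts, the nucleated precursors of red blood cells, on 4 Sod2+/+ arrays and 3 Sod2-/- arrays.

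All donors and recipients were mice on a C57BL/6 background. Fetal liver cells of Sod2+/+ or Sod2-/- littermates, the latter homozygous for the B6-Sod2tm1Cje allele, were taken at E13.5-16.5 of development. They were transplanted into congenic female recipients aged 11 to 15 weeks that had received 1050 rad of gamma irradiation. TER-119+ CD71+ marrow cells of medium to high forward scatter were then sorted, so both groups passed through the same irradiation, transplant and gate. By the study's account this gate spans several stages of erythroblasts, and Sod2-/- marrow held a larger share of early, basophilic erythroblasts. The mix of stages in each array was not measured here, so stage and genotype cannot be told apart in these values. The transplanted blood cells carry the disrupted gene and the rest of the recipient does not. The arrays carry the replicate numbers 17, 29, 33 and 37 for Sod2+/+ and 31, 35 and 39 for Sod2-/-, and values by array are given in that order. The labels call the arrays biological replicates, and with no animal named for each, the p-values measure the spread between these samples. The precision of the differences is limited by how few arrays there are.

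Superoxide is formed when electrons leak from the mitochondrial respiratory chain. Superoxide dismutases turn it into hydrogen peroxide, SOD2 in the mitochondrial matrix, SOD1 mainly in the cytosol and SOD3 outside the cell. Catalase and the glutathione peroxidases then break the peroxide down. Glutathione peroxidases use reduced glutathione, which glutathione reductase restores with NADPH and which glutamate-cysteine ligase and glutathione synthetase make anew. Red cells carry a heavy load of oxygen and iron, and catalase and Gpx1 are abundant in them.

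The promoter sequence of Gclm and Sod1 is shown first, because their brightest probe sets are among the 3 member probe sets whose values did not overlap between the genotypes, and because these 2 of the 7 members with a promoter window in RefSeq (GRCm38.p6) held the letters searched for. The capitals mark a match to TGACNNNGC, the core of the antioxidant response element, which NRF2 binds and which lies in promoters of glutathione genes. Both matches are on the opposite strand, so the capitals show the reverse complement. The first lies 134 bases and the second 56 bases before the start site of its window.
Gclm, chr3:122245307-122245486, plus strand, 180 bases up to the first annotated base of the gene: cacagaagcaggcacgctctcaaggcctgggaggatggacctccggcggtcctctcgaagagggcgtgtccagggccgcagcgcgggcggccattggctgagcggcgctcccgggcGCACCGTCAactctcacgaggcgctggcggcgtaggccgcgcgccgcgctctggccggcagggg
Sod1, chr16:90220512-90220761, plus strand, 250 bases up to the first annotated base: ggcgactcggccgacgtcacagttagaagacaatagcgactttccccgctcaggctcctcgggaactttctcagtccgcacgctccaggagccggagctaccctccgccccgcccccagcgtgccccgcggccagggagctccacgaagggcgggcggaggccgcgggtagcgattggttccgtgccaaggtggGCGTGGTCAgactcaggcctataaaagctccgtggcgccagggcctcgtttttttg
Of 32851 promoter windows of the same length (250 bases before to 50 after a start), 12.4% hold the same letters on either strand. Gsr, Gclc and Sod3 have no window in the table used here. A match is a description of the letters and not a binding site shown by these data.

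None of the 24 probe sets was called lower and none higher in Sod2-/- erythroblasts at a limma adjusted p of 0.05. Over all probe sets 2.83% were called lower and 0.566% higher. At an unadjusted p under 0.05, 2 member probe sets were lower and 1 was higher, where 12.5% and 7.04% of all probe sets were lower and higher. The methods' t-test with equal variances, adjusted the same way, called 0 members, and 0.00666% of all probe sets lower and 0.00222% higher. The 3 Sod2-/- arrays lay wholly below the 4 Sod2+/+ arrays for 2 probe sets and wholly above them for 1, and 21 overlapped; among all probe sets 10.2% lay below and 7.84% above. The difference was below 0 for 16 member probe sets and above 0 for 8. Over all probe sets the median difference was 0.03, but it was -0.18, -0.27 and -0.17 for mean levels of 6 to 8, 8 to 10 and above 10. The signs of the members were not compared with those of probe sets of like level. The median log2 difference over the 10 genes, each on its brightest probe set, was -0.05, and that over all genes was 0.02. A p that misses the threshold does not show equal levels, so the 95% interval of each difference was read as well: for 16 probe sets it lay within a 1.5-fold change either way, and for 23 within a 2-fold change.

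**Figure D1:**
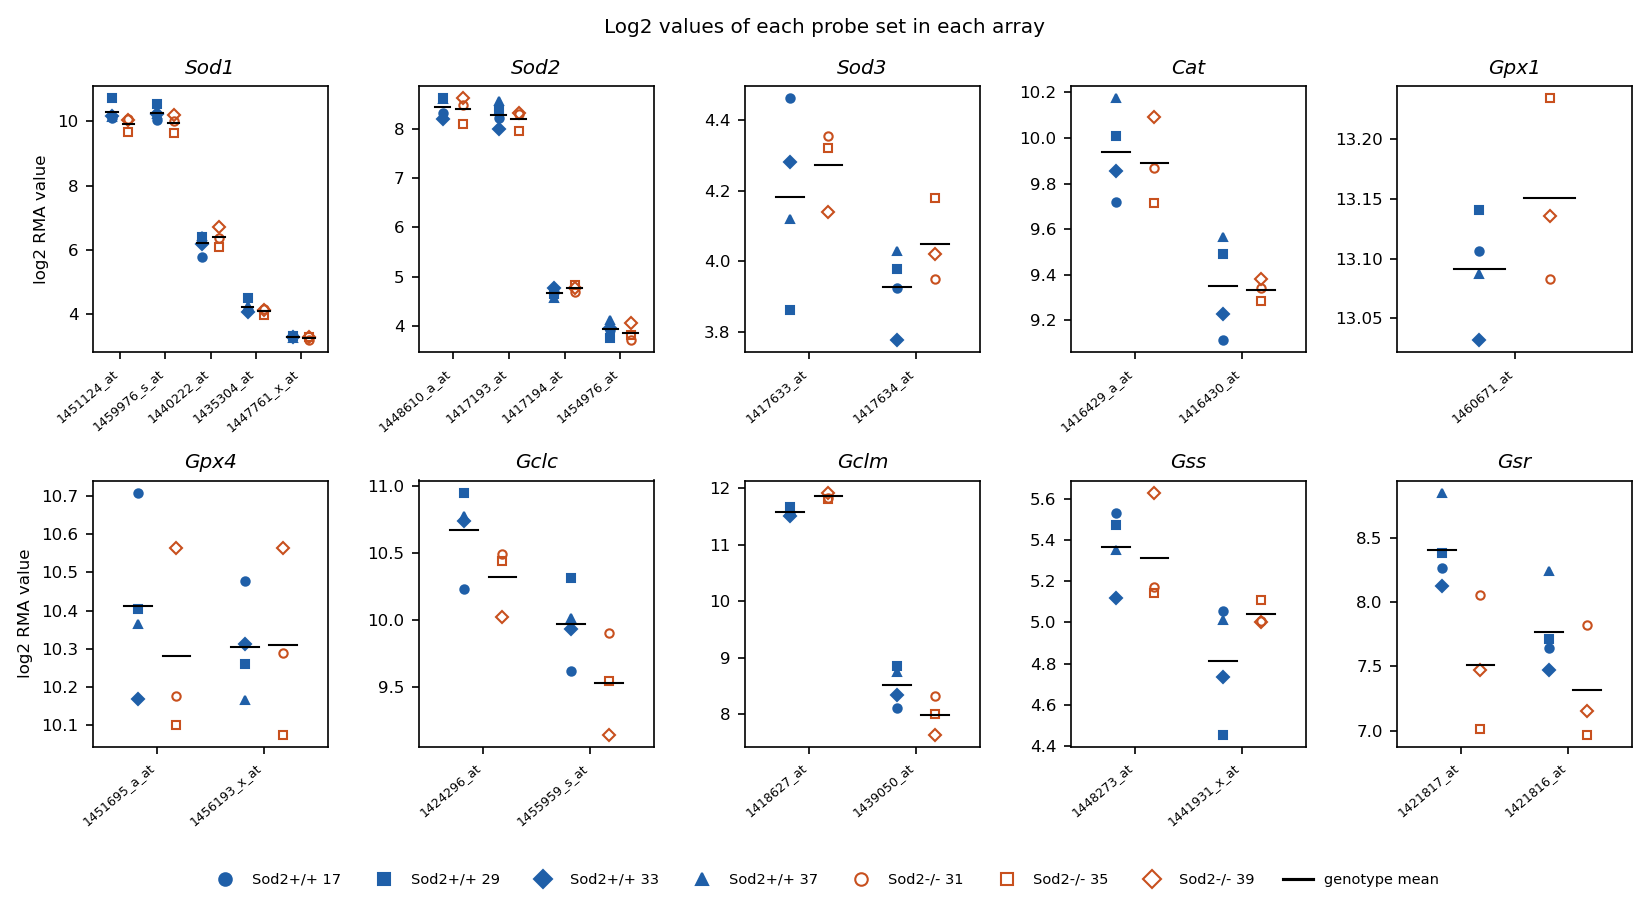
Each panel is 1 gene, and the vertical axis is the deposited log2 RMA value, with its own scale in each panel. Filled blue symbols are the 4 Sod2+/+ arrays, open orange symbols the 3 Sod2-/- arrays, and black lines the genotype means; only Sod1 1451124_at and Gsr 1421817_at have all Sod2-/- arrays below, and only Gclm 1418627_at has all of them above.

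**Figure D2:**
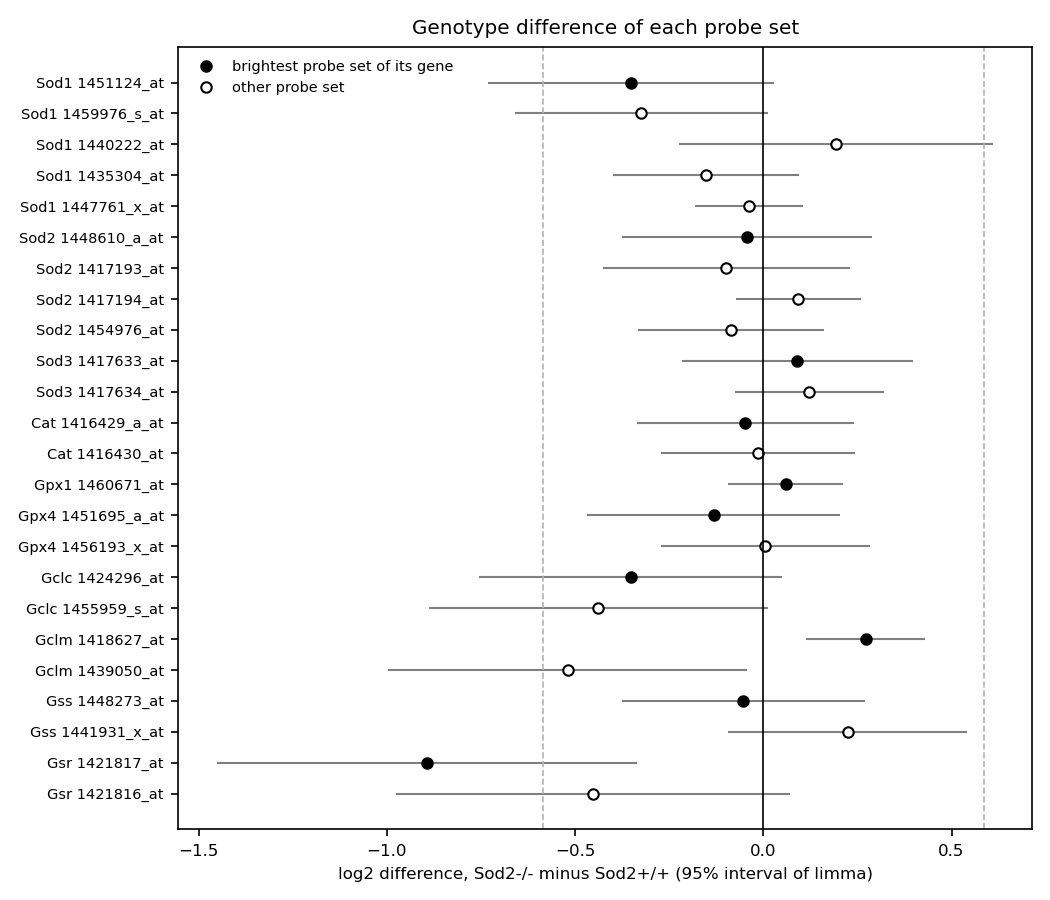
Points give the log2 difference, Sod2-/- minus Sod2+/+, of each of the 24 probe sets, and bars its 95% limma interval. Filled points are the brightest probe set of a gene and dashed lines mark a 1.5-fold change; the interval reaches past a 2-fold change for Gsr 1421817_at alone.

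Sod2, the manganese enzyme of the mitochondrial matrix whose gene is disrupted in the donors, was called on none of its 4 probe sets. The brightest, 1448610_a_at, read 8.32, 8.62, 8.20 and 8.59 in Sod2+/+ arrays and 8.47, 8.09 and 8.61 in Sod2-/- arrays. One Sod2-/- array lay below the Sod2+/+ range and the others within it. The log2 difference was -0.04 ± 0.15 (SE), with a 95% interval from -0.38 to 0.29 and a limma adjusted p of 0.913.

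The second Sod2 probe set, 1417193_at, read 8.21, 8.37, 8.00 and 8.56 in Sod2+/+ arrays and 8.29, 7.94 and 8.32 in Sod2-/- arrays, again with the groups overlapping. Its difference was -0.10 ± 0.14 (interval -0.43 to 0.23, limma adjusted p = 0.768). Both of these probe sets changed sign under quantile normalization, to 0.20 for 1448610_a_at and 0.16 for 1417193_at.

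The other 2 Sod2 probe sets had lower values. 1417194_at read 4.69, 4.65, 4.76 and 4.57 in Sod2+/+ and 4.68, 4.83 and 4.76 in Sod2-/- arrays, a difference of 0.09 ± 0.07 (interval -0.07 to 0.26, limma adjusted p = 0.540). 1454976_at read 3.93, 3.77, 3.96 and 4.12 against 3.71, 3.81 and 4.05, a difference of -0.09 ± 0.11 (interval -0.33 to 0.16, limma adjusted p = 0.727). The disrupted gene is stated by the study to give an mRNA that lacks the deleted exon and to be read by probe sets outside that exon. The position of these 4 probe sets relative to the exon was not analysed here, so their values do not check the genotype.

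Within each array the gap between 1448610_a_at and each of the other Sod2 probe sets was also compared. The gaps to 1417193_at, 1417194_at and 1454976_at differed between the genotypes by 0.06, -0.14 and 0.04 on the log2 scale (exact two-sided permutation p = 0.514, 0.571 and 0.857). The genes whose centred values over the 7 arrays lay closest to those of Sod2 were Rragc, Chic2 and Xpr1, with root mean square differences of 0.037, 0.046 and 0.050 on the log2 scale. Of these, Rragc had a genotype difference of -0.09, against -0.04 for Sod2.

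Sod1, the copper-zinc enzyme of the cytosol, was lower in Sod2-/- arrays on its 2 bright probe sets, without passing the test. On 1451124_at the Sod2+/+ arrays read 10.11, 10.71, 10.15 and 10.12, and the Sod2-/- arrays 10.06, 9.66 and 10.04. All Sod2-/- values were below all Sod2+/+ values, but the nearest pair was only 0.05 apart and one Sod2+/+ array, replicate 29, stood above the rest. The difference was -0.35 ± 0.17 (interval -0.73 to 0.03, limma adjusted p = 0.292), and -0.21 without replicate 29. Within the fluidics stations it was -0.35 and -0.28. With chip lot as a block it was -0.62 for 1451124_at and -0.63 for 1459976_s_at, a value that rests on Sod2-/- replicate 35 alone, the 1 Sod2-/- array of the lot that holds the Sod2+/+ arrays. On 1459976_s_at, whose suffix marks probes that may also read related transcripts, the difference was -0.32 ± 0.15 (limma adjusted p = 0.273) and the groups overlapped. The probe sets 1435304_at and 1447761_x_at differed by -0.15 and -0.04, and 1440222_at by 0.19, with limma adjusted p between 0.498 and 0.797.

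Sod3, the secreted enzyme, was not called on either of its probe sets. Its probe set 1417633_at read 4.46, 3.86, 4.28 and 4.12 in Sod2+/+ and 4.35, 4.32 and 4.14 in Sod2-/- arrays, a difference of 0.09 (limma adjusted p = 0.775). The other, 1417634_at, lay between 3.78 and 4.18 over all 7 arrays, with a difference of 0.12 (limma adjusted p = 0.493). By mean level 1417633_at stood at percentile 40 of all probe sets and 1417634_at at percentile 29, so both read low.

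Copper is taken up by the importer Slc31a1 and passed on by the chaperones Ccs and Atox1, and of these 3 genes none was called. Ccs, which loads copper onto SOD1, differed by -0.29 ± 0.16 (limma adjusted p = 0.374), and Atox1, the chaperone of the secretory route, by -0.27 ± 0.14 (limma adjusted p = 0.339). The median over the list was -0.27.

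No probe set of Cat, Gpx1 or Gpx4 was called. Cat, the peroxisomal enzyme that splits hydrogen peroxide, read 9.72, 10.01, 9.86 and 10.17 in Sod2+/+ and 9.87, 9.71 and 10.09 in Sod2-/- arrays on 1416429_a_at. The groups overlapped, and the difference was -0.05 ± 0.13 (interval -0.34 to 0.24, limma adjusted p = 0.882). The other Cat probe set, 1416430_at, differed by -0.01 ± 0.11 (limma adjusted p = 0.966).

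Gpx1, the major cytosolic glutathione peroxidase of red cells, has 1 probe set, and it read 13.11, 13.14, 13.03 and 13.09 in Sod2+/+ arrays and 13.08, 13.23 and 13.14 in Sod2-/- arrays. One Sod2-/- array lay above the Sod2+/+ range and the other 2 lay within it. The difference of 0.06 ± 0.07 had an interval from -0.09 to 0.21 (limma adjusted p = 0.691).

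Gpx4, which reduces lipid peroxides in membranes, read 10.71, 10.40, 10.17 and 10.36 in Sod2+/+ and 10.18, 10.10 and 10.56 in Sod2-/- arrays on 1451695_a_at. Of the Sod2-/- arrays, 1 lay just below the Sod2+/+ range and 2 within it, and the difference was -0.13 ± 0.15 (limma adjusted p = 0.688). Its other probe set, 1456193_x_at, differed by 0.0053 ± 0.12 (limma adjusted p = 0.989).

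The other glutathione peroxidases, 6 genes on the array, gave no call. All 6 differences were above 0, with the highest 0.25 for Gpx5 and 0.16 for Gpx2. Their Sod2+/+ means were 5.24 and 6.16, and their limma adjusted p were 0.339 and 0.321. All but Gpx2 had mean levels of 4 to 6, where the median difference of all probe sets was 0.05. At 6 to 8, the class of Gpx2, that median was -0.18.

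The members that make and recycle glutathione held the largest differences. Gclm, the regulatory subunit of glutamate-cysteine ligase, read 11.53, 11.66, 11.50 and 11.61 in Sod2+/+ arrays and 11.83, 11.80 and 11.92 in Sod2-/- arrays on 1418627_at. Every Sod2-/- value was above every Sod2+/+ value, by at least 0.14. The difference of 0.27 ± 0.07 is a 1.21-fold increase, with an interval from 0.11 to 0.43. It passed an unadjusted p (0.0038) and not the threshold after adjustment (limma adjusted p = 0.072). Within the 2 fluidics stations the difference was 0.23 and 0.30. With chip lot as a block it was 0.23, which rests on Sod2-/- replicate 35 alone. After quantile normalization it was 0.40, with a limma adjusted p of 0.015, so this call turns on the normalization.

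The second Gclm probe set, 1439050_at, moved the other way. It read 8.11, 8.86, 8.33 and 8.74 in Sod2+/+ and 8.32, 8.01 and 7.64 in Sod2-/- arrays, with the groups overlapping. The difference was -0.52 ± 0.21 (interval -0.996 to -0.04, limma adjusted p = 0.216). The annotation gives both probe sets to the same gene, and they differ in sign.

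Gclc, the catalytic subunit of the same enzyme, was lower on both of its probe sets without passing the test. On 1424296_at the Sod2+/+ arrays read 10.23, 10.95, 10.73 and 10.78, and the Sod2-/- arrays 10.49, 10.44 and 10.03. One Sod2+/+ array fell among the Sod2-/- values. The difference was -0.35 ± 0.18 (interval -0.76 to 0.05, limma adjusted p = 0.320), and 1455959_s_at gave -0.44 ± 0.20 (interval -0.89 to 0.01, limma adjusted p = 0.267). These sizes depended on the arrays compared. Within fluidics stations 1 and 2 they were -0.098 and -0.52 for 1424296_at and -0.064 and -0.63 for 1455959_s_at. Leaving out 1 array gave -0.50 (without Sod2+/+ 17) to -0.21 (without Sod2-/- 39) for 1424296_at, and -0.62 (without Sod2-/- 31) to -0.25 (without Sod2-/- 39) for 1455959_s_at, none of them called.

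Gss, which joins glycine to complete glutathione, was not called: 1448273_at differed by -0.05 ± 0.14 (limma adjusted p = 0.882) and 1441931_x_at by 0.22 ± 0.14 (limma adjusted p = 0.426). The Sod2+/+ arrays of 1448273_at lay between 5.12 and 5.53 and the Sod2-/- arrays between 5.14 and 5.63.

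Gsr, glutathione reductase, had the largest difference among the members. On 1421817_at it read 8.27, 8.38, 8.13 and 8.85 in Sod2+/+ arrays and 8.06, 7.01 and 7.47 in Sod2-/- arrays. All Sod2-/- values were lower, but replicate 31 was only 0.07 below the lowest Sod2+/+ array, while replicates 35 and 39 were further down. The difference was -0.89 ± 0.25, a 1.86-fold decrease (interval -1.45 to -0.33, unadjusted p = 0.0057, limma adjusted p = 0.087). It was called when only bright probe sets were tested (limma adjusted p = 0.044) and without Sod2-/- replicate 31, where it was -1.16 (limma adjusted p = 0.041). On 1421816_at the values were 7.64, 7.71, 7.47 and 8.24 against 7.82, 6.97 and 7.15, with overlap and a difference of -0.45 ± 0.23 (limma adjusted p = 0.326).

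The size of the Gsr difference depended on the arrays compared. Within fluidics station 1 (Sod2+/+ 17 and 29 against Sod2-/- 31) it was -0.27 for 1421817_at and 0.14 for 1421816_at, and within station 2 -1.25 and -0.80. With chip lot as a block it was -1.39 and -0.80, and this value too is that of Sod2-/- replicate 35 alone.

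Neutrophil markers were also lower in Sod2-/- arrays on average. Of 14 neutrophil genes none was called by limma, but all 14 differences were below 0, with a median of -0.74. Their summed linear level was 35328 to 44293 in Sod2+/+ and 16908 to 35184 in Sod2-/- arrays. The mean of these markers in Sod2-/- replicates 31, 35 and 39 was -0.13, -1.33 and -0.79 relative to the Sod2+/+ mean, and Gsr 1421817_at was at -0.35, -1.39 and -0.94 in the same arrays. Their order over these 3 arrays was the same. The 95th percentile of all log2 values, 8.42, 8.20 and 8.32 in the same arrays, had that order too. Defining neutrophil genes were far from 0 in every array: S100a9 read 12.17 or more and Elane, neutrophil elastase, 8.70 or more. In a bulk sample, fewer cells of a type and less RNA per cell cannot be told apart, and the part of these markers in the Gsr difference was not tested.

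**Figure D3:**
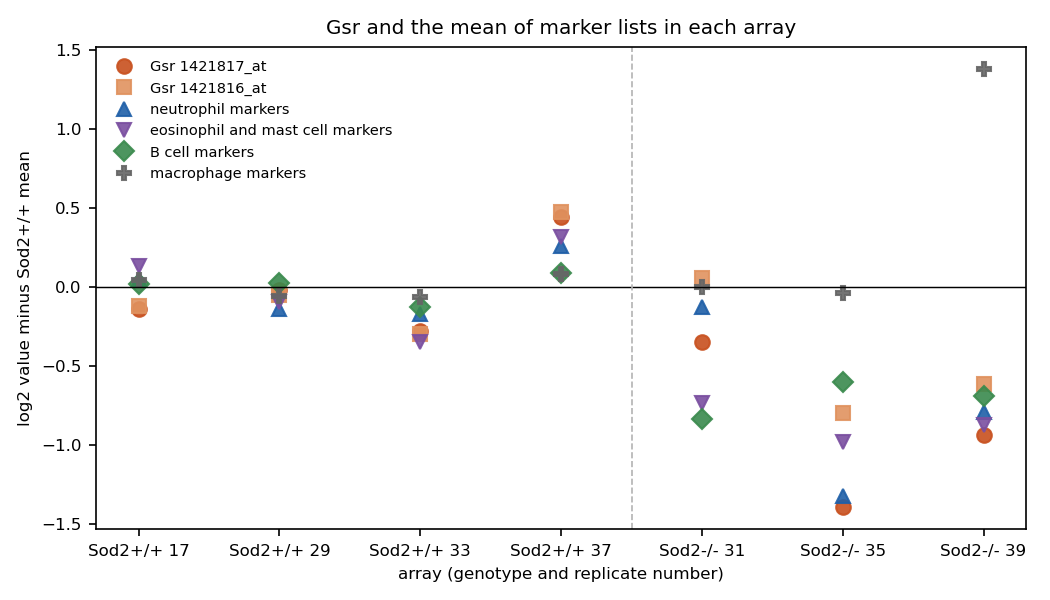
The vertical axis is the log2 value minus the Sod2+/+ mean in each array, for the 2 Gsr probe sets and for the mean of the marker genes of 4 other cell types. Gsr 1421817_at and the neutrophil markers fall furthest in Sod2-/- 35, then 39, then 31. Gsr 1421816_at has the same order but does not fall in Sod2-/- 31, where it lies above the Sod2+/+ mean, at 0.06. The macrophage markers stand out in Sod2-/- 39 alone, at 1.38.

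Other marker lists were read in the same way. Of 11 B cell genes 6 were called lower, with a list median of -0.77, while Pax5 and Ebf1 differed by -0.01 each. Of 6 eosinophil and mast cell genes 3 were called lower, Prg2, Epx and Mcpt8, and 1 difference was above 0. Over all genes 4.47% were called lower. In Sod2-/- replicates 31, 35 and 39 the B cell markers were at -0.83, -0.60 and -0.69 relative to the Sod2+/+ mean. The eosinophil and mast cell markers were at -0.73, -0.98 and -0.87. Of 10 macrophage genes none was called, but Sod2-/- replicate 39 read 7.65, 8.09 and 8.33 for C1qa, C1qb and C1qc, against 4.68 or less in the other arrays. Of the 10 erythroid genes measured none was called, but 8 differences were above 0 and 2 below, with a median of 0.10. For 3 of them, Tfrc, Alas2 and Ank1, all Sod2-/- arrays lay above all Sod2+/+ arrays, as did 7.84% of all probe sets. The mean log2 value of the erythroid genes lay between 11.6 and 11.8 in every array, so these markers were bright in both groups.

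The 3 genes whose centred values over the 7 arrays came closest to Gsr 1421817_at were Was, Hnrnpa0 and Ppm1m, with root mean square differences of 0.067, 0.082 and 0.085. Their genotype differences were -0.89, -0.84 and -0.92, and none was called (limma adjusted p 0.060, 0.083 and 0.054).

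The gap between the brightest and each other probe set of a gene was compared within arrays for the 14 pairs among the members. The Gsr gap, 1421817_at minus 1421816_at, was 0.62, 0.67, 0.66 and 0.61 in Sod2+/+ arrays and 0.23, 0.04 and 0.32 in Sod2-/- arrays. The 4 Sod2+/+ values lay within 0.065 of each other and all were above the 3 Sod2-/- values. The difference in the gap was -0.44 (exact two-sided permutation p = 0.0571).

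The Gclm gap, 1418627_at minus 1439050_at, was 3.42, 2.80, 3.17 and 2.87 against 3.50, 3.79 and 4.27, a difference of 0.79, also at p = 0.0571 in the exact test. The same p was found for the Sod1 gap, 1451124_at minus 1440222_at, with a difference of -0.55. It is the smallest p that 4 arrays against 3 can give, and adjusted over the 14 pairs it was 0.267. The groups did not overlap for 3 of the 14 pairs. Over 16752 such pairs of all genes, 18.9% did not overlap, so the members' share was close to that of the array as a whole.

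**Figure D4:**
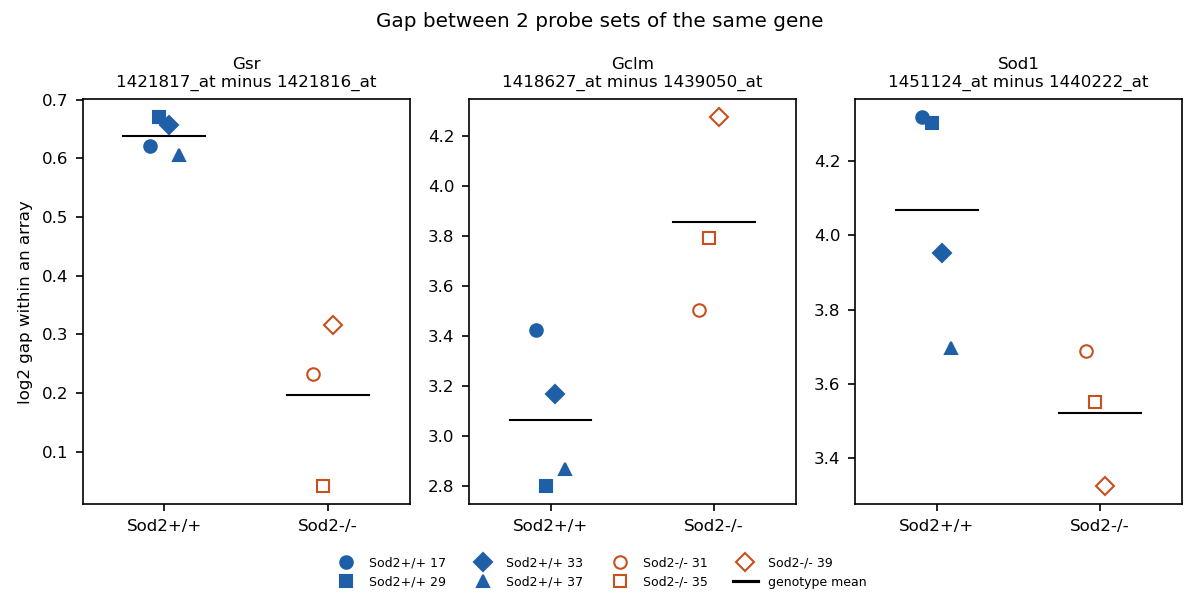
The vertical axis is the log2 gap between 2 probe sets of the same gene within an array, with its own scale for each of Gsr, Gclm and Sod1. Filled symbols are Sod2+/+ and open symbols Sod2-/- arrays, and lines are means; the 4 Sod2+/+ gaps of Gsr lie between 0.61 and 0.67, above all 3 Sod2-/- gaps.

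The wider glutathione system was read together with genes for selenocysteine insertion and for copper delivery to Sod1. The 7 lists held 71 genes, of which 67 were measured. Of these 7 were called lower and 1 higher, each on its brightest probe set, against 4.47% of all genes lower and 0.412% higher. The median difference was -0.03, against 0.02 for all genes. Over all probe sets the share called lower depended on the mean log2 level. It was 0.052% under 4, 1.20% at 4 to 6, 10.6% at 6 to 8, 13.3% at 8 to 10 and 7.15% above 10. The lists were not compared with genes of like level. The lists and their genes were chosen with earlier results of these data known.

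**Figure D5:**
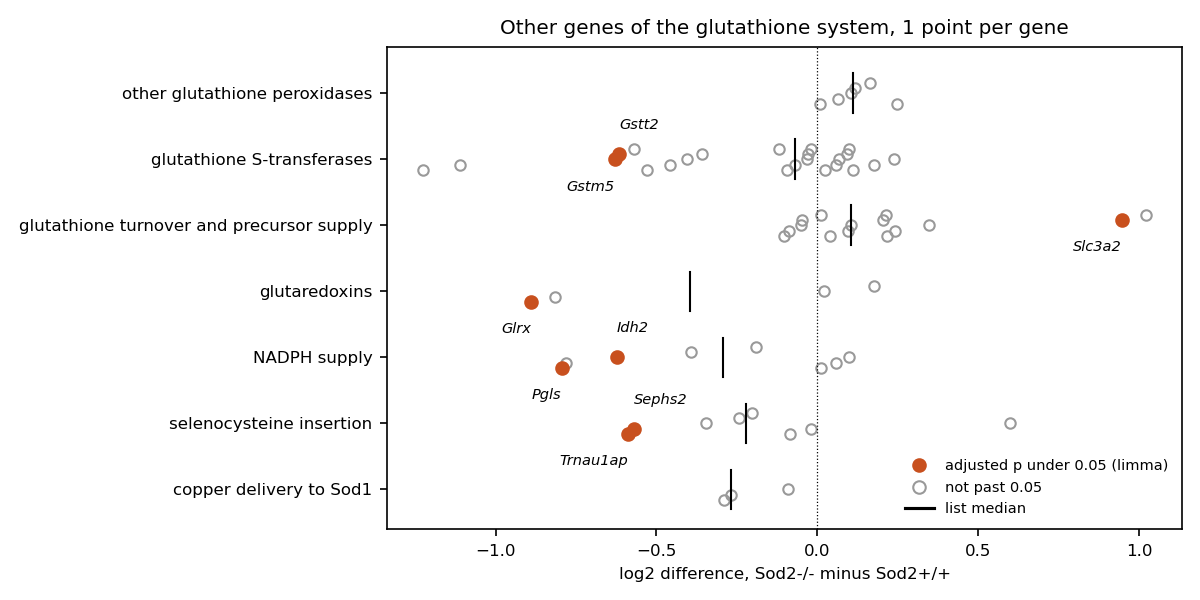
Each point is 1 gene of the lists other than the members, and the horizontal axis is the log2 difference, Sod2-/- minus Sod2+/+. Orange points passed a limma adjusted p of 0.05 and are named, open points did not, and black lines are list medians; 7 named genes lie left of 0 and Slc3a2 alone lies right of it.

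Glutathione S-transferases join glutathione to electrophiles. Of 23 measured, 2 fell: Gstm5, a mu-class enzyme, read 9.24, 9.60, 9.16 and 9.15 in Sod2+/+ and 8.65, 8.65 and 8.67 in Sod2-/- arrays. Its difference was -0.63 ± 0.11 (limma adjusted p = 0.028). Gstt2, of the theta class, differed by -0.62 ± 0.14 (limma adjusted p = 0.048). Both are in a list the study made from these arrays, so their direction here is no independent evidence. The list median was -0.07.

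The genes that break down glutathione or supply its parts gave 1 call among 15. Slc3a2, the heavy chain that carries amino acid exchangers including the cystine importer to the membrane, read 11.10, 10.54, 10.31 and 10.36 in Sod2+/+ and 11.51, 11.40 and 11.66 in Sod2-/- arrays. Every Sod2-/- value was higher, and the difference was 0.95 ± 0.18 (limma adjusted p = 0.033). It too is in a list the study made from these arrays. Chac1, which degrades glutathione, differed by 1.02 ± 0.26 and was not called (limma adjusted p = 0.072). Slc7a11, the light chain of the cystine importer, differed by 0.21 (limma adjusted p = 0.140). Its values were low, with means of 3.71 in Sod2+/+ and 3.92 in Sod2-/- arrays, at percentile 20 of all probe sets by mean level.

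Of 9 listed genes that supply NADPH, which glutathione reductase needs, 8 were measured and G6pdx was not. Of the 8, 2 were called lower. Pgls, an enzyme of the pentose phosphate path, differed by -0.80 ± 0.12 (limma adjusted p = 0.022), and Idh2, the mitochondrial NADP-dependent isocitrate dehydrogenase, by -0.62 ± 0.12 (limma adjusted p = 0.033). Pgls read 8.22, 8.18, 7.89 and 8.09 in Sod2+/+ and 7.14, 7.20 and 7.57 in Sod2-/- arrays, with no overlap.

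Of 4 glutaredoxins, which reduce disulfides with glutathione, 1 fell: Glrx read 6.56, 6.66, 6.50 and 7.03 in Sod2+/+ and 6.11, 5.35 and 5.93 in Sod2-/- arrays, and differed by -0.89 ± 0.19 (limma adjusted p = 0.044). Relative to the Sod2+/+ mean, Sod2-/- replicates 31, 35 and 39 were at -0.58, -1.33 and -0.76 for Glrx and at -0.34, -0.83 and -0.71 for Idh2. The neutrophil markers were at -0.13, -1.33 and -0.79 in these arrays, in the same order, and their part in the 2 falls was not tested. The 95th percentile of all log2 values had that order in these arrays as well. Glrx5, the mitochondrial glutaredoxin of iron-sulfur cluster assembly, differed by 0.02 (limma adjusted p = 0.904).

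Selenocysteine is the catalytic residue of Gpx1 and Gpx4. Of 8 genes that insert it, 2 fell: Trnau1ap, a factor that binds the selenocysteine tRNA, by -0.59 ± 0.09 (limma adjusted p = 0.023), and Sephs2, which makes the selenium donor, by -0.57 ± 0.09 (limma adjusted p = 0.022). Gpx1 and Gpx4 themselves were not called. Sephs2 was at -0.45, -0.64 and -0.62 in Sod2-/- 31, 35 and 39 relative to the Sod2+/+ mean. This is the order of the neutrophil markers, but replicates 35 and 39 were close, and the part of these markers was not tested. Sephs2 read 7.83, 7.82, 7.83 and 8.07 in Sod2+/+ and 7.44, 7.25 and 7.27 in Sod2-/- arrays. Trnau1ap, Pgls, Gstm5, Gstt2 and Slc3a2 were not in that order. In the same arrays Trnau1ap was at -0.49, -0.60 and -0.67 and Pgls at -0.96, -0.90 and -0.53. Gstm5 was at -0.64, -0.64 and -0.61, Gstt2 at -0.76, -0.41 and -0.68 and Slc3a2 at 0.93, 0.83 and 1.08.

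The calls of single pathway genes did not survive the loss of an array in most cases. Of the 7 fits that left out 1 array each, Pgls, Sephs2 and Trnau1ap passed in 4, Gstm5 in 2, Slc3a2, Glrx and Idh2 in 1, and Gstt2 in 0. Without Sod2-/- replicate 35, none of the 8 was called. The counts lower were 3, 2, 4 and 1 without Sod2+/+ 17, 29, 33 and 37 and 6, 0 and 2 without Sod2-/- 31, 35 and 39, and the counts higher were 2 without Sod2+/+ 17 and 0 otherwise. In all 7 fits Slc3a2 was higher, between 0.86 and 1.12, and Pgls lower, between -0.93 and -0.71, with the adjusted p of limma between 0.0086 and 0.092 for Slc3a2 and between 0.022 and 0.079 for Pgls. Within fluidics stations 1 and 2, Slc3a2 differed by 0.69 and 1.20, Pgls by -1.06 and -0.61, Sephs2 by -0.38 and -0.69 and Gstm5 by -0.77 and -0.49. In the same stations Glrx differed by -0.50 and -1.12, Idh2 by -0.31 and -0.79, Gstt2 by -0.83 and -0.47 and Trnau1ap by -0.59 and -0.54.

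Bright probe sets were lower in Sod2-/- arrays across the array as a whole. The median log2 difference of all probe sets was -0.18 for mean levels of 6 to 8, -0.27 for 8 to 10 and -0.17 above 10, and after quantile normalization it was 0.02, -0.05 and -0.06. The members' bright probe sets lie in these classes, so their differences are to be read against these medians, and quantile normalization moved Cat and Sod2 from below to above 0. The 95th percentile of log2 values was 8.42 to 8.71 in Sod2+/+ and 8.20 to 8.42 in Sod2-/- arrays.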

How the data were processed

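TER-119+ CD71+ erythroblasts were measured on 4 Sod2+/+ and 3 Sod2-/- arrays, 1 RNA sample per array. The authors deposited log2 values from RMA (robust multi-array averaging), and their processing notes also name GCOS 1.3.037. Genome build and annotation versions are not given in the sources used here, and the remaining Sod2-/- array of the design was not analysed here. Other text that the authors deposited with each array gave the fluidics station and chip lot.

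Values were used as deposited, with no filter. Control probe sets were left out. Genotype was the single term of a limma 3.58.1 model (R 4.3.3, empirical Bayes), run on 45037 probe sets with Benjamini-Hochberg adjustment over all of them and a threshold of 0.05. The adjusted p-values are those of limma, apart from those of the permutation and t-tests. A gene is represented by its brightest probe set, that with the highest mean over 7 arrays among those matched to it alone. Gaps were compared by an exact permutation test over samples in Python 3.11.15.

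Members and lists were chosen with earlier results of these data known. Named genes were every member probe set, the called genes of each pathway list (up to 5) or, where none was called, the 2 with the largest differences, and the 3 genes most like Sod2 and Gsr. Chac1, Slc7a11, Glrx5 and the marker genes were named after their values were seen. Alternatives were the methods' t-test, eBayes with trend and robust fitting, array weights, quantile normalization, median centring, an offset of 32, bright probe sets alone, station and lot as blocks or alone, means of probe sets and leaving out each array. The test was checked on simulated data.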

Additional observations from a re-analysis of the deposited data

Results flagged for a closer look

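Of 36 sets of 4 Sod2+/+ values examined, 2 held an array apart from the other 3. Chance sets an array apart in about 1 of 20 such groups. Sod1 1451124_at read 10.71 in Sod2+/+ replicate 29 and 10.11, 10.12 and 10.15 in the others. Sephs2 1435602_at read 8.07 in Sod2+/+ replicate 37 and 7.82, 7.83 and 7.83 in the others. Without these arrays the differences were -0.21 for Sod1 1451124_at and -0.51 for Sephs2. Sephs2 was called with and without replicate 37, and Sod1 was not called with or without replicate 29.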

How the results depend on the processing

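No paired analysis was possible because the replicate numbers of the 2 genotypes share no number. The study sorted Sod2+/+ and Sod2-/- samples in pairs, and the labels do not say which arrays form a pair. Of the 24 member probe sets, 11 kept their sign under each alternative setting that gave them a value, 12 settings or 11 where bright probe sets alone left them out, and in the 7 fits that left out 1 array. No setting called a member except the 3 named here. After quantile normalization 1 was called higher, Gclm 1418627_at at 0.40; with bright probe sets alone 1 was called lower, Gsr 1421817_at at -0.89; leaving out 1 array gave 0 to 1 lower and 0 higher, Gsr at -1.16 without Sod2-/- replicate 31. Signs changed for Cat 1416430_at (0.024) and Gpx4 1456193_x_at (-0.027) under array weights. They changed under quantile normalization for Cat 1416429_a_at (0.10), Cat 1416430_at (0.18), Sod2 1417193_at (0.16), Sod2 1448610_a_at (0.20) and Gpx4 1451695_a_at (0.0058), and under median centring for Gpx4 1456193_x_at (-0.034). In fluidics station 1 alone they changed for Cat 1416429_a_at (0.0076), Cat 1416430_at (0.038), Sod2 1417193_at (0.0067), Sod3 1417634_at (-0.0011), Gsr 1421816_at (0.14), Gpx4 1456193_x_at (-0.081) and Gpx1 1460671_at (-0.041). In station 2 alone they changed for Sod1 1447761_x_at (0.016), Gss 1448273_at (0.15) and Gpx4 1451695_a_at (0.066). With chip lot as a block, and in the lot of the Sod2+/+ arrays alone, they changed for Sod1 1440222_at (-0.10) and Gpx4 1456193_x_at (-0.23), and the median difference of the members was -0.23 instead of -0.05. Leaving out 1 array moved that median between -0.18 and 0.025, and moved Cat 1416429_a_at between -0.15 and 0.041, Cat 1416430_at between -0.093 and 0.058, Gpx4 1456193_x_at between -0.12 and 0.12, Gss 1448273_at between -0.21 and 0.033, Sod2 1417193_at between -0.19 and 0.022, Sod2 1448610_a_at between -0.15 and 0.11 and Sod3 1417633_at between -0.016 and 0.18. Of the pathway genes, 7 were lower and 1 higher; the methods' t-test, an offset of 32 and each station alone called 0 and 0, quantile normalization 3 and 2, bright probe sets alone 10 and 2, the station block 4 lower, the lot block and the lot alone 0 higher and the mean of all probe sets 4 lower. Leaving out 1 array gave 0 to 6 lower and 0 to 2 higher. The cause of these changes was not tested, other than that a station or lot alone holds fewer arrays.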
